A study of Mus musculus with 8 samples.

Results

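Agap1 is a long mouse gene whose RNA gave many crosslinking and immunoprecipitation (CLIP) peaks above the Zmat3 knockout immunoprecipitate (IP), and it was picked for that. Its peaks are all called peaks on the plus strand of chromosome 1 whose midpoint falls within the Agap1 span. There were 346, 327 and 373 of them in controls 1 to 3 and 269 in the knockout, out of 129323, 153768, 122284 and 167648 called peaks in the lists over input. Of the peaks in all 7 deposited lists together, 2361 of 978429 belonged to Agap1. The gene was chosen by its log2 folds over the knockout IP, so these are given here as a description with no test.

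The study set out to find the RNAs bound by Zmat3 in mouse embryonic fibroblasts (MEFs). It comprised 8 samples, namely 4 IPs with an anti-Zmat3 antibody and their 4 inputs, after UV crosslinking, RNase treatment and excision of the 35 to 110 kDa gel region. Controls 1, 2 and 3 had the genotype Cas9+;E1A;HrasG12V and carried the guides sgNegative control EV, SPA and ACOCA, in that order. The knockout had the genotype Zmat3-/-;E1A;HrasG12V and no guide. All cells, knockout included, expressed the adenoviral protein E1A and oncogenic Hras from retroviruses, so no untransformed fibroblasts enter the comparisons. The knockout was 1 line from an earlier study with 1 IP library. Per the labels' genotypes it also lacked the Cas9 and the guide of the controls, so absence of Zmat3 and these other differences between lines cannot be told apart. Nothing in the labels says whether the 3 control lines came from separate embryos, so the standard deviations (SD) given here may be partly technical.

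The lists hold, for each peak, the authors' log2 fold of the IP over its comparator and a −log10 p-value. Each control has 1 list over input and 1 over the knockout IP, whereas the knockout has a list over input only. The 3 lists over the knockout IP share that 1 knockout library. Library depth is unknown, because no list holds read numbers. Of 12 fibroblast markers, 7 had a called peak, with 193, 206, 143 and 191 peaks in controls 1 to 3 and the knockout. Vim, Fn1, Sparc and Col5a1 were among them, whereas Col1a1, Col1a2, Thy1, Dcn and Lum had none in any library. Markers of neurons had 9, 8, 4 and 0 peaks, all in Map2. Epithelial markers had 9, 10, 12 and 19, leukocyte markers 1, 3, 2 and 2, and endothelial markers none. The part of these markers in the Agap1 values was not tested, and a peak number is no RNA level.

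Agap1 encodes an Arf GTPase-activating protein with a GTPase-like domain, a pleckstrin homology domain and ankyrin repeats. Arf GTPases are small switches that recruit coats to membranes, and GTPase-activating proteins such as Agap1 return them to the inactive state. Agap1 protein binds the AP-3 adaptor, which sorts cargo at endosomes, and has been studied in endosomal trafficking in cultured cells and in neurons. Zmat3 is a zinc finger protein induced by p53 that binds RNA and influences the splicing of its targets, much of it through introns.

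The gene spans chr1:89454811-89895282 on the plus strand of mm10 (gene ID 347722), a length of 440472 nt. Among 17491 protein-coding genes with a known strand its span ranks 224. Inside it lie 2 long non-coding RNA genes of the opposite strand, Gm41914 at chr1:89554508-89580927 and 4933400F21Rik at chr1:89676507-89683892. No list held a minus-strand peak with its midpoint in the span, so these genes contributed no called peak. Exons and introns were not analysed here. The promoter is shown because the gene start it contains is the origin of all distances given here. It comes from RefSeq on GRCm38.p6, plus strand, chr1:89454561-89454840, with 250 upstream bases in lower case and the first 30 transcribed bases in capitals.
Agap1 promoter: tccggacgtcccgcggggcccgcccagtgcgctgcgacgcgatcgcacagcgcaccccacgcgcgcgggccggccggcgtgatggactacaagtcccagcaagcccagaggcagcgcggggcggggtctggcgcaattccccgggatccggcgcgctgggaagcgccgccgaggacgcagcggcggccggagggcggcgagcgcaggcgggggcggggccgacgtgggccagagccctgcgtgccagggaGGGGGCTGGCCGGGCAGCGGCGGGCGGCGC
The 300-nt window from which this was taken, which runs on to position 89454860, had a GC content of 80%. A lower GC content was found in 99.0% of 32851 such promoter windows, whose median was 52.7%. The GC box letters GGGCGG, searched on both strands, occurred 5 times in the Agap1 window, and 35.7% of all windows held them at least 1 time.

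Agap1 had many called peaks in every library, the knockout included. The 346, 327 and 373 peaks of the controls had a mean of 348.7 ± 23.1 (SD, n = 3), and each control lay above the 269 of the knockout. Per 10 kb of span there were 7.86, 7.42 and 8.47 peaks in controls 1 to 3, against 6.11 in the knockout. These peaks were 0.268%, 0.213% and 0.305% of all called peaks in the controls and 0.160% in the knockout, whose list was the longest. Among 1298 genes with at least 20 called peaks in each of the 7 lists, Agap1 ranked 3, 5 and 2 by peak number in controls 1 to 3, and 21 in the knockout list. These ranks are not scaled to span, so they favour long genes, and peaks per 10 kb were not ranked among genes. The median peak was 51, 42 and 40 nt long in the controls and 37 nt in the knockout. Together the peaks covered 4.33%, 3.26% and 3.46% of the span in controls 1 to 3 and 2.50% in the knockout. For each control, the list over input and the list over the knockout IP held the same Agap1 positions.

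**Figure D1:**
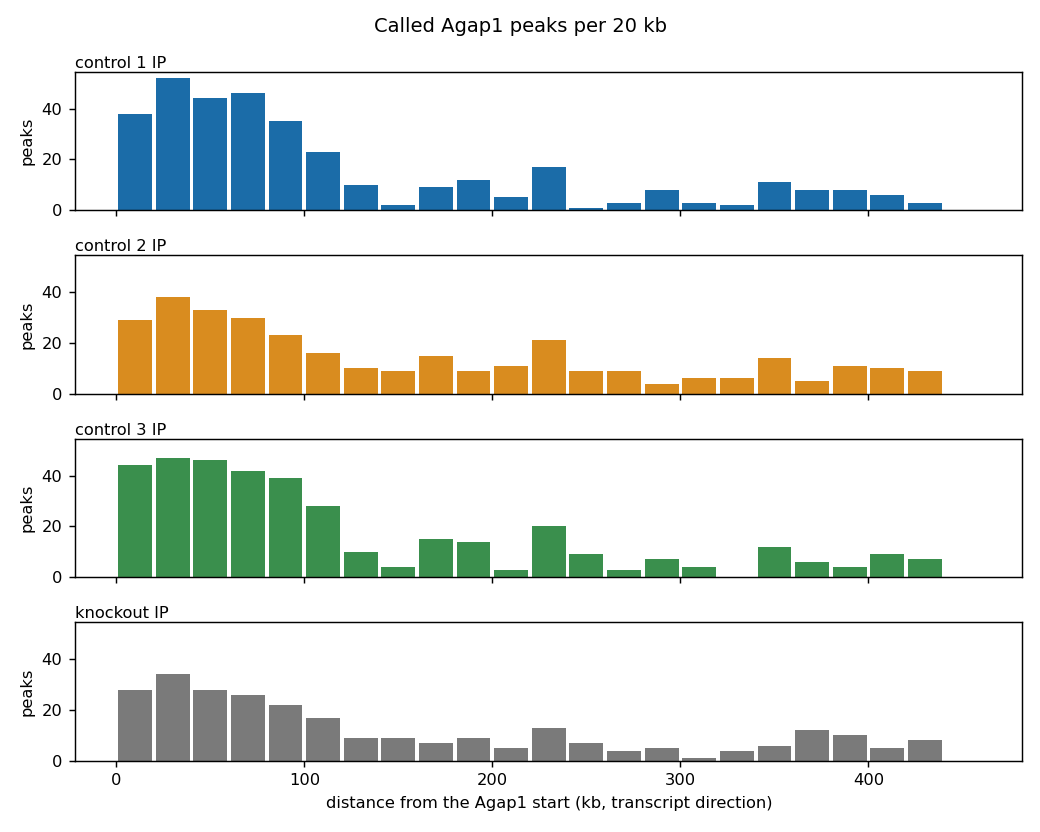
Number of called Agap1 peaks (y axis) in consecutive 20-kb stretches of the gene (x axis, kb from the gene start in transcript direction), with 1 panel for each IP library and bars starting at 0. All 4 libraries, the knockout included, have most of their peaks near the gene start and a lower number over the rest of the span.

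Over the knockout IP, the Agap1 peaks of controls 1 and 3 were high along the whole gene and those of control 2 much less so. The median log2 fold of Agap1 peaks was 2.34 in control 1, 1.30 in control 2 and 1.96 in control 3, with a mean of 1.87 ± 0.53 (SD, n = 3). The medians of all called peaks in the same lists were 1.18, 0.88 and 1.00. After subtraction of its list's median, Agap1 stood at 1.15, 0.42 and 0.96, with a mean of 0.84 ± 0.38 (SD, n = 3). Thus Agap1 lay above the list median in every control, with control 2 the lowest and nearest to it. Peaks above the list median made up 95.1% of Agap1 peaks in control 1 (329 of 346), 65.1% in control 2 (213 of 327) and 92.5% in control 3 (345 of 373).

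The Agap1 peaks of control 1 ranged from a log2 fold of 0.48 to 4.92 over the knockout IP, all of them above 0 (beside 88.6% of its list). In control 2 they ranged from −0.82 to 3.55, and 313 of 327 were above 0 (beside 83.5% of its list). In control 3, 372 of 373 peaks were above 0 (beside 84.9% of its list), with a highest value of 4.39. The middle 50% of the peaks lay between 1.86 and 2.92 in control 1, between 0.71 and 1.88 in control 2 and between 1.58 and 2.58 in control 3. These middle ranges overlapped over most of their width in controls 1 and 3, whereas that of control 2 lay lower, meeting control 1 at its edge and overlapping the lower part of control 3. Many peaks shared a value, with 114, 67 and 98 distinct log2 folds over the knockout IP among the Agap1 peaks of controls 1 to 3.

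Enriched peaks, defined as a log2 fold of at least 3 with a −log10 p-value of at least 3, showed the same order of the controls. Over the knockout IP, 53 Agap1 peaks of control 1 were enriched, which is 15.3% of its Agap1 peaks beside 0.621% of all called peaks in that list. In control 2 there were 2, or 0.612% beside 1.09% of the whole list. In control 3 there were 23, or 6.17% beside 0.648%. None of the 1298 genes with at least 20 peaks in each list held more enriched peaks than Agap1 in controls 1 and 3, whereas in control 2 its share was below that of the list and 51 genes had more. The mean was 26 enriched peaks, and without control 1 it was 12.5.

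Other thresholds kept the order of the controls. At a log2 fold of at least 2, with the −log10 p threshold kept, there were 139, 4 and 54 Agap1 peaks in controls 1 to 3, beside 1.28%, 1.46% and 1.01% of the lists. At a log2 fold of at least 4 there were 8, 0 and 4, beside 0.22%, 0.501% and 0.306%. At both folds control 2 had the fewest. With the −log10 p threshold lowered to 2 there were 62, 3 and 37, beside 1.33%, 1.55% and 1.35%. Raised to 5, it left 26, 0 and 7, beside 0.26%, 0.553% and 0.271%.

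With the fold threshold alone, 70, 7 and 46 Agap1 peaks of controls 1 to 3 passed, beside 2.09%, 2.41% and 2.06% of all called peaks. With the −log10 p threshold alone, 149 (43.1%), 4 (1.22%) and 64 (17.2%) passed, beside 2.22%, 2.1% and 1.62% of the lists. The highest −log10 p-value among Agap1 peaks was 13.8 in control 1, 4.69 in control 2 and 10.1 in control 3. Just inside the fold threshold, the lowest enriched peaks stood at 3.02, 3.10 and 3.04 in controls 1 to 3. Among peaks that passed the −log10 p threshold but not the fold threshold, the highest stood at 2.99, 2.08 and 2.998. In the last 0.5 below the fold threshold such peaks, all past the −log10 p threshold, numbered 44, 0 and 16.

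**Figure D2:**
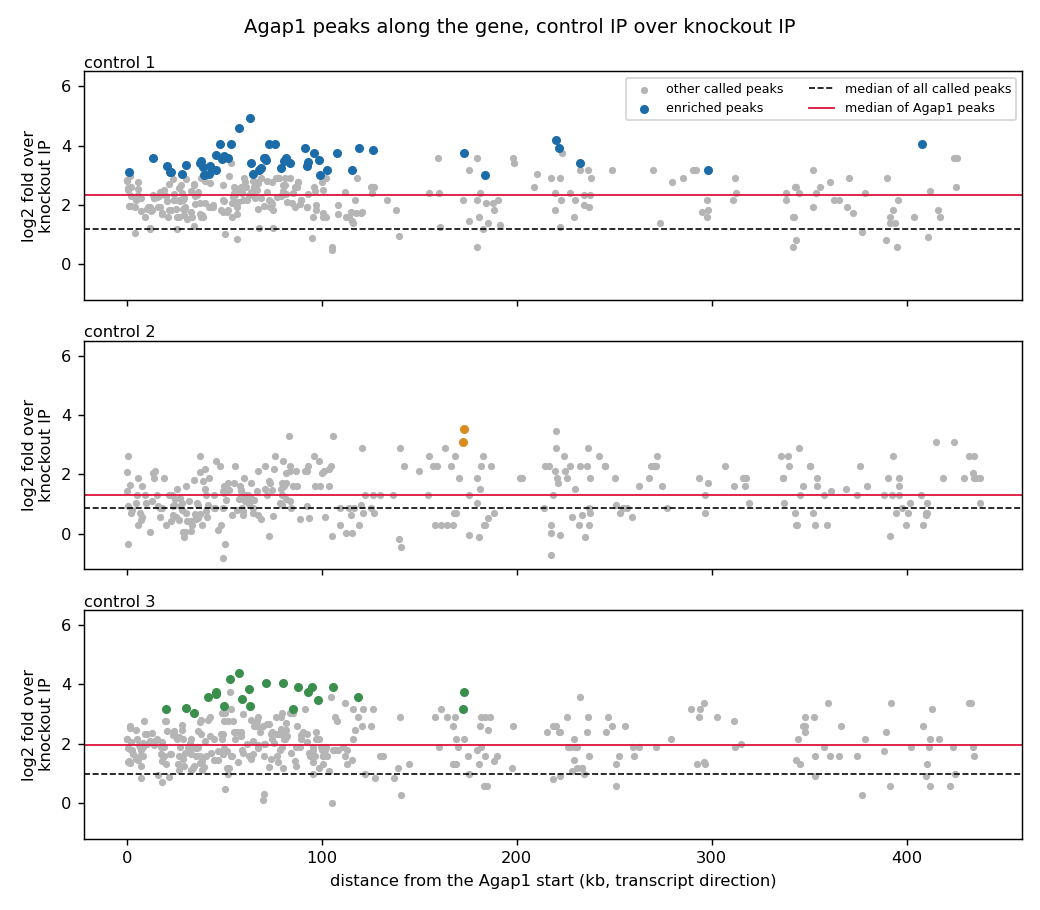
Log2 fold over the knockout IP of every called Agap1 peak (y axis) against the distance from the gene start (x axis, kb), with 1 panel for each control. Coloured points are enriched peaks (53, 2 and 23), grey points the other called peaks, the red line the Agap1 median and the dashed line the median of all called peaks in the list.

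Over input, Agap1 stood above the list median in all 4 libraries, the knockout among them. The median log2 fold over input was 1.54, 1.19 and 1.11 in controls 1 to 3, with a mean of 1.28 ± 0.23 (SD, n = 3), and 0.65 in the knockout. Every control was above the knockout, with a difference of 0.63 between the control mean and the knockout. The lists themselves differed in the same direction, with medians of 0.90, 0.60 and 0.60 in the controls and 0.23 in the knockout. After subtraction of the list median, Agap1 stood at 0.64, 0.58 and 0.51 in controls 1 to 3, with a mean of 0.58 ± 0.06 (SD, n = 3), and at 0.42 in the knockout. The remaining difference was 0.16, beside a median of 0.11 over the 1298 genes, among which Agap1 ranked 559. With 3 control libraries against 1, a two-sided exact permutation test cannot give a p below 0.25, so no call was made.

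The knockout values were coarse. The 269 knockout peaks of Agap1 took 30 distinct log2 folds over input, and 58 of them had the Agap1 median of 0.65 and 59 the list median of 0.23. The knockout offset of 0.42 is therefore the distance between the commonest values. Above 0 lay 212 of the 269 knockout peaks, beside 58.9% of the whole list, and below it 57, with a highest log2 fold of 2.23 and a highest −log10 p-value of 0.892.

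Few Agap1 peaks were enriched over input. Control 1 had 4 (1.16%, beside 1.02% of its list), control 2 had 2 (0.612%, beside 1.05%) and control 3 had 1 (0.268%, beside 0.494%). The knockout had 0, beside 0.316% of its list, and none of its Agap1 peaks reached the fold threshold at any p-value. These shares lay close to or below those of the lists. The 4 peaks of control 1 were at chr1:89457026-89457087 (3.64), chr1:89492204-89492210 (3.22), chr1:89550955-89551035 (3.05) and chr1:89627645-89627728 (4.48). Those of control 2 were at chr1:89529287-89529364 (3.02) and chr1:89627639-89627714 (3.26), and that of control 3 was at chr1:89496459-89496526 (3.12). Only the peaks near 172.8 kb from the gene start overlapped between controls.

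The count over input depended on the threshold. At a log2 fold over input of at least 2, control 1 had 45 Agap1 peaks (13.0%, beside 1.58% of its list), whereas control 2 had 3 (beside 1.38%) and control 3 had 3 (beside 0.672%). At a log2 fold of at least 4 there were 1, 0 and 0, beside 0.458%, 0.445% and 0.199%. The raised Agap1 share over input at the lower fold was thus seen in control 1. With a −log10 p of at least 2 there were 6, 3 and 4 (beside 1.57%, 1.49% and 0.882%), and with at least 5 there were 2, 0 and 0 (beside 0.519%, 0.564% and 0.275%). With no p threshold there were 8, 4 and 6, beside 2.52%, 2.21% and 1.04%. Peaks enriched over input and over the knockout IP alike numbered 1, 1 and 0 in controls 1 to 3. The share of all called peaks enriched over both comparators was not computed, so these counts cannot be called low or high.

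Among the 1298 genes, the place of Agap1 depended on the comparator. By the mean offset from the list median over the knockout IP it ranked 10, with ranks of 4, 69 and 18 in the single controls. The same mean had a median of −0.09 and an SD of 0.40 over all these genes. Over input its rank was 162 in the mean of the controls and 52 in the knockout. Genes with an offset above 0 over the knockout IP in all 3 controls, as Agap1 had, numbered 133, or 10.2%. The rule that chose Agap1 used the comparison with the knockout IP, so its rank there is no evidence of its own.

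**Figure D3:**
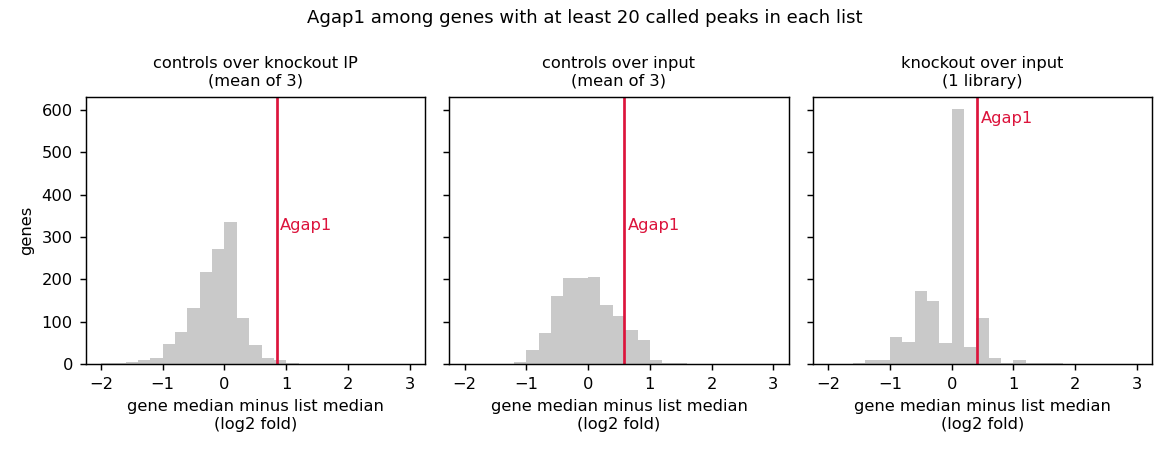
Histograms of the gene median minus the list median (x axis, log2 fold) over 1298 genes with at least 20 called peaks in each list (y axis, number of genes), for the mean of 3 controls over the knockout IP, the mean of 3 controls over input, and the knockout over input. The red line marks Agap1 at 0.84, 0.58 and 0.42.

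Each control peak has a value over input and a value over the knockout IP at the same position. The median of the difference, over the knockout IP minus over input, was 0.82, 0.28 and 0.99 for the Agap1 peaks of controls 1 to 3. For all called peaks it was 0.28, 0.28 and 0.57. Agap1 thus exceeded its list in controls 1 and 3 by 0.53 and 0.42, and in control 2 by 0.00. The value over the knockout IP was the higher one at 284 of 346, 185 of 327 and 281 of 373 Agap1 peaks. The share over all called peaks was not computed, and their median difference was likewise positive in each control, so these counts are not read as particular to Agap1.

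Most control peaks of Agap1 lay where the knockout had no called peak. A knockout peak overlapped 83 of 346 (24.0%), 51 of 327 (15.6%) and 80 of 373 (21.4%) control peaks, with 1 shared nt on the gene's strand as the minimum. Over all called peaks of these lists the shares were 30.5%, 28.2% and 30.1%, so low overlap was common to the lists and somewhat lower in Agap1. In the other direction, 81, 51 and 79 of the 269 knockout peaks (30.1%, 19.0% and 29.4%) were overlapped by a peak of controls 1 to 3. At the overlapped control peaks the median log2 fold over input was 1.56, 1.02 and 0.99, where the knockout had 0.65 in each set. The control value was the higher one at 69 of 83, 33 of 51 and 49 of 80 positions. Position by position, the differences had a median of 1.02, 0.56 and 0.34. No list median was subtracted from these values. The list medians over input were 0.90, 0.60 and 0.60 for controls 1 to 3, above the 0.23 of the knockout list. The same share over all overlapped peaks was not computed, so these counts and differences are not read as particular to Agap1.

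The presence of a knockout peak went with a lower value over the knockout IP. Where a knockout peak overlapped, the median log2 fold over the knockout IP was 1.82, 0.52 and 1.37 in controls 1 to 3. Where none did, it was 2.51, 1.52 and 2.17. Over all called peaks the corresponding medians were 0.28, 0.12 and 0.17 with an overlap and 1.34, 1.30 and 1.32 without, so the lists as a whole showed the same order. Of the enriched Agap1 peaks, 51 of 53, 2 of 2 and 23 of 23 had no overlapping knockout peak, beside 96.1%, 97.6% and 97% of all enriched peaks, which is near the background. The knockout IP is the comparator of these folds, so its called peaks and the folds are not independent, and the authors' handling of positions with few or no knockout reads is not known here.

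Along the gene, peaks were crowded toward the start in all 4 libraries. The first 30% of the span held 245 (70.8%), 177 (54.1%) and 254 (68.1%) of the peaks in controls 1 to 3, and the knockout had 159 (59.1%) there. This came to 18.5, 13.4 and 19.2 peaks per 10 kb in the controls and 12.0 in the knockout, against 3.28, 4.86, 3.86 and 3.57 over the remaining 70%. Control 2 was the least crowded and lay below the knockout, so the controls did not stand apart from it. In 10 equal parts of the span, control 1 had 97 and 100 peaks in the first and the second part and at most 20 in any part from the fourth on. Control 2 had 73 and 70 in those first parts and at most 30 in any part from the fourth on, control 3 had 98 and 97 with at most 29, and the knockout had 67 and 58 with at most 21.

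Agap1 was more crowded toward its start than the median long gene in each library. Among 146 genes with a known strand, a span of at least 200 kb and at least 20 peaks in each list, the median share of peaks in the first 30% of the span was 34.1%, 30.4% and 36.8% in controls 1 to 3 and 37.6% in the knockout. Agap1 ranked 7, 28 and 13 in the controls and 16 in the knockout. By number of peaks it ranked 2, 5 and 2 of these long genes in the controls and 18 in the knockout. By offset from the list median over the knockout IP it ranked 1, 12 and 9, where the long genes as a whole had a median of 0.03 for the mean of the controls. Over input, the long genes were themselves above the list median in the controls, with median offsets of 0.30, 0.42 and 0.55. Agap1 ranked 36, 44 and 74 there and lay below the long-gene median in control 3. In the knockout the long genes had a median offset of 0, and Agap1 ranked 5.

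The fold over the knockout IP did not follow the number of peaks. The medians of the 10 parts ranged from 2.05 to 2.77 in control 1, from 0.95 to 1.88 in control 2 and from 1.75 to 2.54 in control 3, and in each control the highest lay in the seventh part, which held 11, 13 and 10 peaks. The median in the first 50% of the span minus that in the last 50% was 0.00 in control 1, −0.43 in control 2 and 0.09 in control 3, with a mean of −0.11 ± 0.28 (SD, n = 3). The mean is smaller than its spread, and without control 2 it was 0.047. Over input, the corresponding medians were 1.54 and 1.48 in control 1, 1.02 and 1.34 in control 2, 1.18 and 0.92 in control 3, and 0.65 and 0.23 in the knockout.

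The enriched peaks, in contrast, sat near the start in controls 1 and 3. In the first 30% of the span lay 46 of 53 enriched peaks of control 1 and 21 of 23 of control 3, but 0 of 2 of control 2. As a share of the Agap1 peaks there, 18.8% were enriched in control 1 against 6.93% over the rest, and 8.27% against 1.68% in control 3. The −log10 p-values followed the same division. Their median in the first 30% of the span was 3.43, 0.59 and 2.02 in controls 1 to 3, and 1.46, 0.48 and 1.06 over the rest.

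The peaks began almost at the annotated start. The first peak of control 1 (chr1:89454867-89455012) began 56 nt after the gene start and had 2.83 over the knockout IP (log2 fold). That of control 2 (chr1:89454872-89454945) began 61 nt after it with 1.45, and that of control 3 (chr1:89454937-89455016) 126 nt after it with 2.17. The first knockout peak (chr1:89455303-89455369) began 492 nt after the start with a log2 fold over input of −0.18. At the other end, the last peaks ended 14897, 3100 and 6331 nt before the gene end in the controls and 1151 nt in the knockout. The nearest plus-strand peaks outside the gene were 310, 337 and 309 kb before it in the controls and 1511 kb in the knockout, and 708 to 709 kb after it in all 4 libraries. The run of Agap1 peaks thus lay within the annotated gene.

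Merging overlapping control peaks gave 737 Agap1 regions, of which 518 were called in 1 control, 144 in 2 and 75 in all 3. Over all called peaks, 7.8% of 300569 regions were called in all 3. The 75 shared regions of Agap1 (10.2%) are the positions at which the controls can be set beside each other, and 65 of them lay in the first 30% of the span. Their median log2 fold over the knockout IP was 2.34, 0.95 and 2.17 in controls 1 to 3, and 69 of them were above 0 in every control. Values above 0 were usual, at 88.6%, 83.5% and 84.9% of all called peaks in controls 1 to 3. The share of shared regions of all genes above 0 in every control was not computed. Control 2 was the lowest at 69 of these 75 positions, and at 64 after subtraction of each list's median. Control 1 was the highest at 57. Averaged over the controls, the regions ran from 0.13 to 3.69, with a median of 1.77 and a median SD of 0.73.

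The highest of the shared regions, and the one with the closest values among the 10 highest, was chr1:89627634-89627728, 172.8 kb from the gene start. Its log2 fold over the knockout IP was 3.77, 3.55 and 3.75 in controls 1 to 3 (3.69 ± 0.13, SD, n = 3), and it was enriched in all of them. Over input it stood at 4.48, 3.26 and 1.77, so that control 3 was below the threshold there. The knockout had no called peak at this position. A neighbouring region, chr1:89627296-89627395, had 2.18, 3.10 and 3.17 over the knockout IP (2.82 ± 0.55, SD, n = 3) and was the only one of the 10 highest in which control 1 was the lowest. Both enriched peaks of control 2 lay in this pair of regions.

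Other high regions were less even. At chr1:89500411-89500486 the log2 folds over the knockout IP were 3.69, 2.47 and 3.67 (mean 3.27 ± 0.70, SD, n = 3) beside 0.82, 1.19 and 0.36 over input. At chr1:89546162-89546233 they were 3.92, 2.10 and 3.17 on the same scale (mean 3.06 ± 0.91, SD, n = 3), although the values over input were −0.36, 0.24 and −0.14. In the latter region the control IPs were thus high against the knockout IP and close to their own inputs. At chr1:89691184-89691263, in the remaining 70% of the span, they were 3.18, 2.88 and 2.90 (mean 2.99 ± 0.17, SD, n = 3), and no control passed the −log10 p threshold. At chr1:89527669-89527818 they were 4.06, 1.78 and 2.65 (2.83 ± 1.15, SD, n = 3), the widest spread among the 10 highest. The other 4 of the 10 highest had means from 2.64 to 2.74 with control 1 the highest in each. None of the 10 had a called knockout peak, beside 29 of all 75 shared regions that had one. The knockout IP is the comparator in this ranking, so the ranking and its called peaks are not independent.

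**Figure D4:**
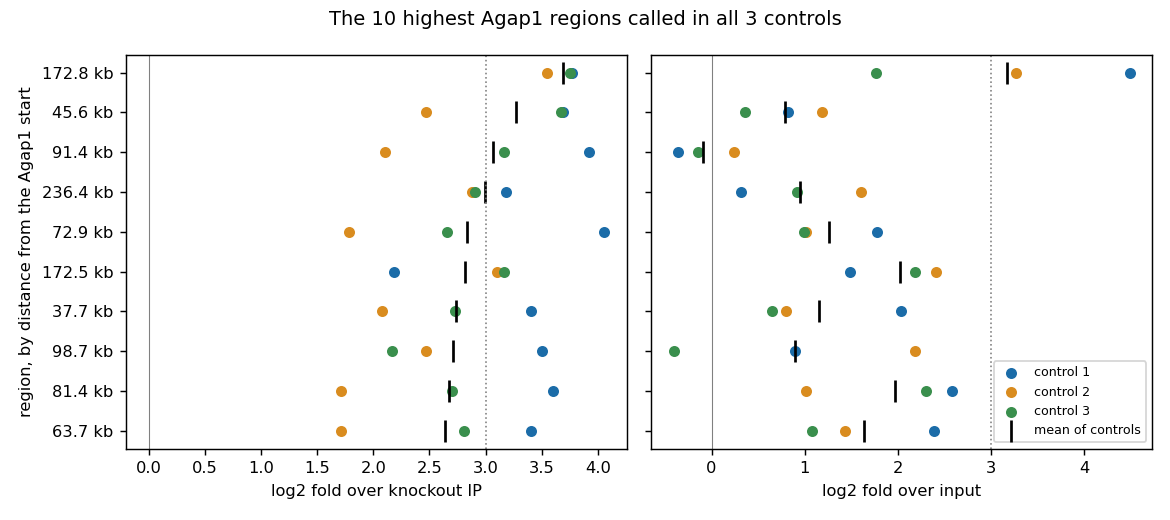
The 10 highest Agap1 regions called in all 3 controls, ordered by mean log2 fold over the knockout IP and labelled by distance from the gene start (y axis). The x axes give the log2 fold over the knockout IP (left) and over input (right), points are controls, black bars their mean, and the dotted line is the fold threshold of 3; only the region at 172.8 kb is past it on the left in all controls.

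Counting enriched peaks over the knockout IP, 69 Agap1 regions were enriched in at least 1 control, of which 61 were so in 1 control, 7 in 2 and 1 in 3. The 8 regions with at least 2 controls were 11.6% of the 69, beside 25.8% of the 2317 enriched regions of all genes. Of the 8 regions with 2 or more controls, 6 rested on controls 1 and 3. Without control 1 there were 2 such regions and without control 3 there was 1. The highest pair of values was at chr1:89512434-89512502, with 4.60 in control 1 and 4.39 in control 3. At chr1:89517840-89517899, where the highest Agap1 peak of control 1 lay, they were 4.92 and 3.28. Control 2 had no called peak at either position. The remaining 4 of the 6 regions had 3.34 and 3.20 (chr1:89484954-89485109), 3.69 and 3.67 (chr1:89500411-89500481), 3.18 and 3.75 (chr1:89500748-89500818), and 3.46 and 3.75 (chr1:89547548-89547676) in controls 1 and 3. All 6 lay in the first 30% of the span.

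The 3 highest peaks of each control differed in position for the most part. After the peaks near 57 and 63 kb named above, the next highest in control 1 had 4.18 over the knockout IP, at chr1:89675077-89675156. Control 2 had 3.47 at chr1:89675091-89675135 and 3.30 at chr1:89537809-89537852 after its highest peak, and neither passed the −log10 p threshold. The former overlapped the control 1 peak just named. Control 3 had 4.17 at chr1:89507764-89507819 and 4.04 at chr1:89526033-89526095 after its highest peak.

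At the lower end, all 5 of the lowest shared regions had a called knockout peak, beside 29 of all 75 shared regions. The lowest, chr1:89560292-89560359, stood at 0.48, −0.08 and −0.0019 over the knockout IP in controls 1 to 3 (0.13 ± 0.31, SD, n = 3). Over input the same region had 1.09, 1.02 and 1.01 in the controls and 2.23 in the knockout, its highest Agap1 value. The knockout thus exceeded every control in the fold over input, whereas over the knockout IP control 1 was above 0. The next, chr1:89505192-89505251, stood at 1.01, −0.35 and 0.47 over the knockout IP (mean 0.38 ± 0.69, SD, n = 3), and the knockout itself at 0.65 over input.

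By Euclidean distance over the 7 list-centred gene medians (from 4 IP libraries), the genes most like Agap1 among 1297 others were Wnt7b (0.60), Pde4d (0.70), Rabgap1l (0.82), Lhfpl2 (0.83) and Foxp1 (0.90). Wnt7b encodes a secreted Wnt ligand, Pde4d a cyclic AMP phosphodiesterase and Foxp1 a forkhead transcription factor. Their mean offsets from the list median over the knockout IP were 0.88 ± 0.13, 0.85 ± 0.32, 0.72 ± 0.29, 0.67 ± 0.08 and 0.55 ± 0.12 (SD, n = 3). All 5 had fewer peaks than Agap1 in every library, and at most 1 enriched peak over the knockout IP in any control. The strand of Wnt7b was not in the tables used, so its peaks were counted on either strand.

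Agap1 had more peaks than each of the 6 nearest genes with peaks, 3 on each side, but these genes are shorter. Their spans ran from 4.0 kb (Arl4c) to 132 kb (Lrrfip1) against 440 kb for Agap1, and the numbers are not scaled to span. Before Agap1, Sh3bp4, an adaptor of endocytic transport 299.7 kb away, had 10, 1 and 8 peaks in controls 1 to 3 but none in the knockout list. Its offset over the knockout IP was 1.00, 1.00 and 1.17 (1.06 ± 0.10, SD, n = 3), which in control 2 rests on 1 peak. Further away, the Arf-like GTPase gene Arl4c had 3, 5, 3 and 3 peaks with −0.39 ± 0.21 (SD, n = 3), and Glrp1 had 2, 0, 1 and 0. After Agap1, the COP9 signalosome gene Cops8 had 6, 11, 9 and 7 peaks with 0.06 ± 0.05 (SD, n = 3), Mlph had 1, 0, 0 and 0, and Lrrfip1 had 84, 99, 66 and 111 with −0.48 ± 0.27 (SD, n = 3). Agap1 and Sh3bp4 were thus above the list median in every control, and Lrrfip1 and Arl4c below it.

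Over the knockout IP, the paralog Agap3 did not share the values of Agap1. Agap3 had 44, 39 and 38 peaks in controls 1 to 3, fewer than the 59 of the knockout. Its offset over the knockout IP was −0.22, −0.26 and −0.42 (−0.30 ± 0.10, SD, n = 3), and 1 of its peaks, in control 1, was enriched. On that scale Agap1 lay above Agap3 in each control, and the ranges did not overlap. Over input, Agap3 was above the list median as Agap1 was, at 0.35, 0.64 and 0.32 in controls 1 to 3 and 0.22 in the knockout. In control 2 it lay above Agap1 there. Agap2 had 1 called peak, in control 1, with an offset of 1.00 over either comparator.

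Of 20 other Arf GAP genes, 18 had a called peak and 12 had at least 5 in each list over the knockout IP. Of these 12, 3 lay above the list median in all controls and 2 below it, with a median offset of 0.11. Over all 4861 genes with that many peaks, 20.3% lay above it in all controls, 23.9% below it in all, and the median offset was 0.01. No member had a peak enriched over the knockout IP in at least 2 controls, beside 9.79% of the 4861 genes. The 12 members are too few to set against that share. Agap1 was chosen on this comparison, so its own enriched peaks are no contrast with its family. The 3 members with most peaks were Asap1 (123, 166, 88 and 234 peaks, offset −0.39 ± 0.21), Acap2 (40, 74, 36 and 68, offset −0.09 ± 0.22) and Agfg1 (29, 31, 27 and 29, offset 0.11 ± 0.09), each with n = 3 controls. The 3 members above the list median in all controls, named after their values were seen, were Arap3 (1.40 ± 0.19), Smap2 (1.13 ± 0.11) and Arap1 (0.31 ± 0.10). Arap3, with 8, 13, 9 and 0 peaks, had a higher offset than Agap1 in each control. The strands of Arap3, Smap2 and Asap1 were not in the tables used, so their peaks were counted on either strand, unlike those of Agap1.

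The genes for partners of Agap1 protein form small lists. Of 7 AP-3 subunit genes, 3 had at least 5 peaks in each list over the knockout IP, and 0 of these lay above or below the list median in all controls. Ap3b1 had an offset of 0.06 ± 0.10, Ap3d1 of −0.18 ± 0.36 and Ap3s2 of 0.46 ± 0.62 (SD, n = 3). Of 6 Arf GTPase genes, the substrates of the family, 5 had that many peaks, with 0 above and 3 below the list median in all controls and a median offset of −0.56. These numbers are too small to set against the shares over all genes. Arf3, the member with most peaks, stood at −0.30 ± 0.17, Arf1 at −0.25 ± 0.57 and Arf4 at −1.03 ± 0.19 (SD, n = 3). The other 2 of the 5 were Arf5 at −0.56 ± 0.53 and Arf6, which acts at the plasma membrane, at −1.26 ± 0.07 (SD, n = 3). The peaks of Arf6, whose strand was likewise unknown, were counted on either strand. Arf1 lay above the list median in control 2, at 0.42, and Arf5 at it, whereas Arf3, Arf4 and Arf6 lay below it in every control. Folds over the knockout IP alone do not separate how much of an RNA a line held from how much of it was recovered.

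**Figure D5:**
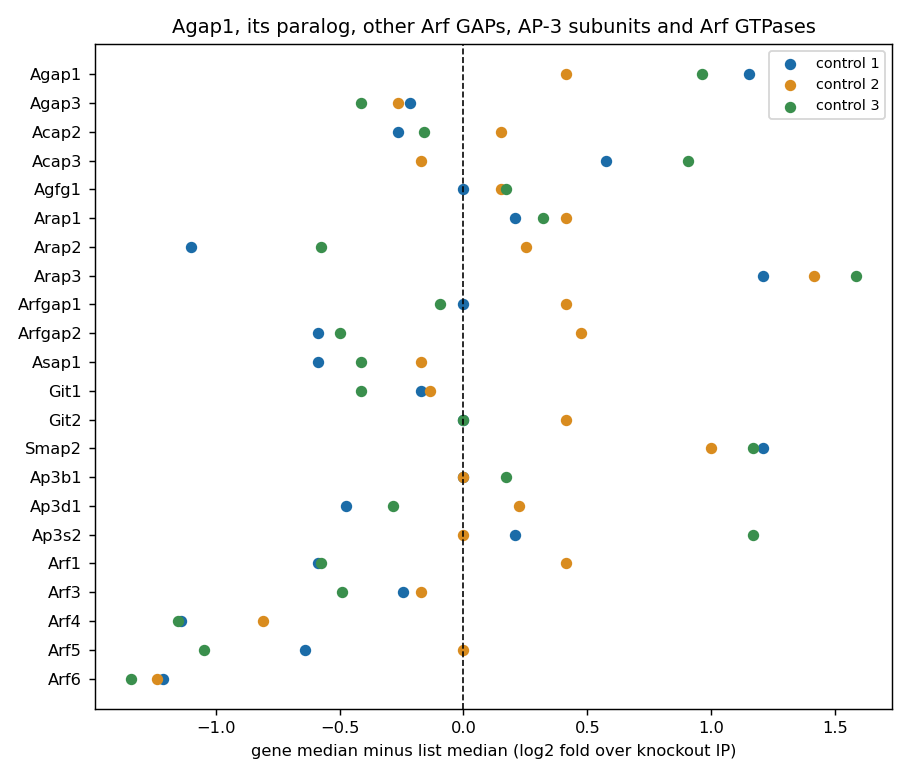
Gene median minus list median of the log2 fold over the knockout IP (x axis) in the 3 controls (points) for Agap1, its paralog Agap3 and those Arf GAP, AP-3 and Arf GTPase genes with at least 5 peaks in each list over the knockout IP (y axis). The dashed line is the list median; Agap1 has 1.15, 0.42 and 0.96, and Agap3 lies below 0 in all controls.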

How the data were processed

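RNA bound in anti-Zmat3 IPs was listed as called peaks for 3 controls and 1 knockout. The lists have no header. Their values and layout give position, strand, a −log10 p-value (capped at 400) and a log2 fold, all computed and deposited by the authors. The comparator, input or knockout IP, was read from the deposited names. The build is mm10, per the submitters' processing notes. The sources used here do not give the aligner or the peak caller, and depth is unknown.

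Peaks were assigned by midpoint to the 1 protein-coding gene whose RefSeq span (GRCm38.p6) holds it, on the gene's strand where known (17491 of 21896 genes) and on either strand for the other 4405. A gene's offset is its median log2 fold minus the median of all called peaks in that list. Gene ranks need 20 peaks in each list and gene lists need 5. Named genes were Agap1, its paralogs, nested genes, the 3 nearest genes with a peak on each side, the 3 members of each gene list with most called peaks, and the 5 most like genes. Arap3, Smap2, Arap1, Arf5, Arf6 and the marker genes named fall outside it and were named after their values were seen. The members, lists, thresholds and rules were chosen with earlier results of these data known. Alternatives were other fold and p thresholds, other averages, list-median subtraction, strand, overlap and nested-gene rules, and leaving out each control. The absence of a p threshold was added after seeing the data. The scripts were tested on simulated data. Python 3.11.15, numpy 2.4.6, pandas 2.3.3 and matplotlib 3.10.9 were used. Coordinates are 1-based.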

Additional observations from a re-analysis of the deposited data

Results flagged for a closer look

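At the Agap1 region chr1:89846028-89846137, 391 kb from the gene start, every control was above its input and the knockout below its own. The log2 fold over input was 2.02, 0.24 and 0.86 in controls 1 to 3 (1.04 ± 0.90, SD, n = 3) and −0.46 in the knockout. Over the knockout IP the same region had 1.60, −0.07 and 0.58 (0.71 ± 0.84, SD, n = 3), so control 2 was not above the knockout there. The difference between controls and knockout was not tested.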

How the results depend on the processing

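Subtraction of the list median moved the Agap1 mean over the knockout IP from 1.87 to 0.84, that over input from 1.28 to 0.58, and the control minus knockout difference from 0.63 to 0.16, all in the same direction. The mean number of peaks enriched over the knockout IP (26) was 65.7 at a log2 fold of at least 2, 4 at 4, 11 at a −log10 p of at least 5 and 41 with no p threshold. Over input (2.33) it was 17, 0.333, 0.667 and 6 at these settings and 4.33 at a −log10 p of at least 2. The 8 regions enriched in 2 or more controls became 26 at a log2 fold of at least 2, 1 at 4, and 1 when all 3 controls were required. Leaving out each control in turn gave 336.5 to 359.5 called peaks, a mean over the knockout IP of 1.63 to 2.15, over input of 1.15 to 1.36, and a control minus knockout difference of 0.50 to 0.71. Enriched peaks over the knockout IP then numbered 12.5 (without control 1) to 38 on average, those over input 1.5 (without control 1) to 3, and regions 2, 7 and 1 without controls 1, 2 and 3. The first minus last 50% of the span gave −0.21 to 0.047, the latter without control 2, where the sign was reversed; the cause was not tested. No paired analysis was possible because there is 1 knockout library and its number pairs it with no particular control. The unknown depth and the treatment of peaks with few comparator reads limit all folds.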

Other observations

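The longest stretch of Agap1 without a called peak lay in nearly the same place in all 3 controls, a pattern noticed after the values were seen. It ran from 312 to 338 kb from the gene start in control 1, from 319 to 336 kb in control 2 and from 315 to 343 kb in control 3, with lengths of 25346, 16491 and 28214 nt. The knockout had 2 called peaks between 319 and 336 kb, with a highest log2 fold over input of 0.23, and its own longest stretch, 22473 nt, ran from 195 to 217 kb. The median distance between neighbouring peaks was 369, 713.5 and 463.5 nt in controls 1 to 3 and 795.5 nt in the knockout.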
